A study of Mus musculus with 16 samples.

Results

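The genes described here are 39 genes of the lysosome: its proteases and other hydrolases, its membrane proteins, the proton pump that acidifies it, the Ragulator complex on its surface and the transcription factors Tfeb and Tfe3. They were chosen by name, from a list of symbols, with earlier results of these data known. Each was read from the brightest probe set that the platform annotation gives to that gene alone. Of the 39 genes, 37 had such a probe set and all 37 passed the filter on dim genes, among 16760 genes tested in all. Atp6v0c was not listed in that annotation and Glb1 had only a probe set shared with another gene, so neither was analysed here. Expression was measured on 16 arrays in regulatory T cells (Treg cells), CD4+ cells sorted by a Foxp3-YFP reporter from spleen and peripheral lymph nodes of C57BL/6 mice and stimulated in culture for 4 h by anti-CD3 and anti-CD28 bound to the plate. All mice carried a Cre recombinase expressed with Foxp3, so that the floxed Atg7 gene is deleted in Foxp3-expressing cells. Atg7+/- stands for Atg7+/flFoxp3-Cre mice, which keep 1 intact copy, and Atg7-/- for Atg7fl/flFoxp3-Cre mice, in which both copies are floxed. Mice of each genotype were left untreated or were given the mTOR inhibitor rapamycin by intraperitoneal injection, at 4 mg per kg daily for 5 days. This gave 4 groups of 4 arrays, and the ages of the mice are not given in the labels.

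Lysosomes break down material that autophagy, endocytosis and phagocytosis bring to them. Their hydrolases work at the low pH that the proton-pumping V-ATPase maintains. The Ragulator complex anchors the Rag GTPases on the lysosomal surface, where mTOR complex 1 is activated when amino acids are present. Active mTOR complex 1 phosphorylates Tfeb and Tfe3 and keeps them in the cytoplasm, and when it is inhibited they enter the nucleus and bind E-box sequences in the promoters of many lysosomal and autophagy genes. That control acts on the location of the proteins, which arrays of RNA do not read.

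All values are log2 signals, and a difference is called when limma's moderated test gave a p under 0.05 after Benjamini-Hochberg adjustment over all 16760 genes. The 9 markers of T and Treg cells averaged 10.35 to 10.72 per array. The 9 macrophage and monocyte markers with a probe set averaged 4.09 to 4.72 and 7 B cell markers 3.81 to 4.15. Dendritic cell markers averaged 4.51 to 5.1, neutrophil markers 3.9 to 5.01 and markers of CD8 T and NK cells 4.42 to 4.98. The filter on dim genes lay at 3.549. Single markers of these lists were brighter. Cd8b1 had group means of 6.6 to 7.37, Lyz2 of 6.02 to 7.02 and Zbtb46 of 6.01 to 6.55. Itgam and Ms4a1 were below the filter in every group. Atg7 itself was read at a log2 difference of -0.28 between untreated genotypes (SE 0.134, adjusted p = 0.299) and -0.30 under rapamycin (adjusted p = 0.232). Whether that probe set lies in the deleted part was not tested, so this is no check of the genotype labels. The array that differed most from its group was rapamycin Atg7-/- replicate 3, with a root mean square deviation of 0.242 from the group mean over all genes tested against 0.1365 as the lowest of the 16 arrays.

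Rapamycin was followed by lower expression of a small set of lysosomal genes in both genotypes, and Tfeb, Tfe3 and most lysosomal genes did not pass the test. In Atg7+/- cells 6 of the 37 genes fell and none rose, namely Ctsb, Atp6v1a, Ctsa, Atp6v1d, Ctsz and Lamtor3. In Atg7-/- cells 7 fell, Ctsb, Atp6v1a, Asah1, Ctsa, Lamtor3, Neu1 and Ctsz, and 1 rose, Lamtor5. These counts are 16.2% and 21.6% of the 37 genes, beside 14.1% and 20.0% of all genes called for rapamycin in Atg7+/- and Atg7-/- cells, so the share of lysosomal genes called was near that of all genes. Lower calls made up 16.2% and 18.9% of the 37 genes, against 8.11% and 11.1% of all genes, and higher calls 0% and 2.7%, against 6.03% and 8.83%. The list was chosen with earlier results of these data known, so these shares describe it and test nothing. With the filter at the 50th percentile of all values, 20.6% and 27% of all genes were called. That filter left 36 lysosomal genes, of which 8 were called in Atg7+/- cells. The part of brightness in these shares was not tested. The median log2 difference of the 37 genes was -0.13 in Atg7+/- and -0.12 in Atg7-/- cells, where that of all genes was -0.0345 and -0.0399. The median in Atg7-/- cells depended on single arrays: it was -0.0128 without rapamycin Atg7-/- replicate 1 and -0.24 without replicate 3.

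Markers of T cells and of other cells also moved with rapamycin, and some differed between genotypes. Of the 9 T and Treg cell markers Cd3e, Cd3g and Cd4 fell in both genotypes, with Cd4 going from a group mean of 8.83 to 8.16 and from 9.08 to 8.33, Ctla4 fell in Atg7-/- cells and Tnfrsf18 rose in both. Of 8 macrophage and monocyte markers tested, C1qb fell in both genotypes, from 5.37 to 4.85 and from 5.23 to 4.64, and C1qa in Atg7-/- cells. Lyz2 of that list, not called, had means of 6.02 and 7.02 in Atg7+/- and of 6.47 and 6.16 in Atg7-/- cells. The average of the macrophage list ran from 4.45 to 4.71 in untreated and from 4.09 to 4.72 in rapamycin arrays. Among markers of dendritic cells, B cells and neutrophils, Xcr1 (log2 differences of -1.10 and -1.10) and Pax5 fell in both genotypes, Blnk fell and Flt3 rose in Atg7+/- cells, and Cxcr2 fell in Atg7-/- cells. Foxp3 (-0.404) and the dendritic cell marker Zbtb46 (-0.407) were called lower in untreated Atg7-/- than in untreated Atg7+/- cells. Cd3d, Cd3g (0.487) and Cd8b1, of a list for CD8 T and NK cells (0.719), were called higher in Atg7-/- cells under rapamycin. No other marker tested was called between genotypes. Among those not called, the neutrophil marker S100a8 had means of 4.94 in untreated Atg7+/- and 5.99 in untreated Atg7-/- cells. S100a9 of that list had 5.62 and 6.36. Of the 6 neutrophil markers 3 were higher and 3 lower in untreated Atg7-/- cells. The part of these markers' cells in the falls of lysosomal genes, or in their genotype differences, was not tested. In bulk samples fewer cells of a type cannot be told apart from less RNA per cell.

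**Figure D1:**
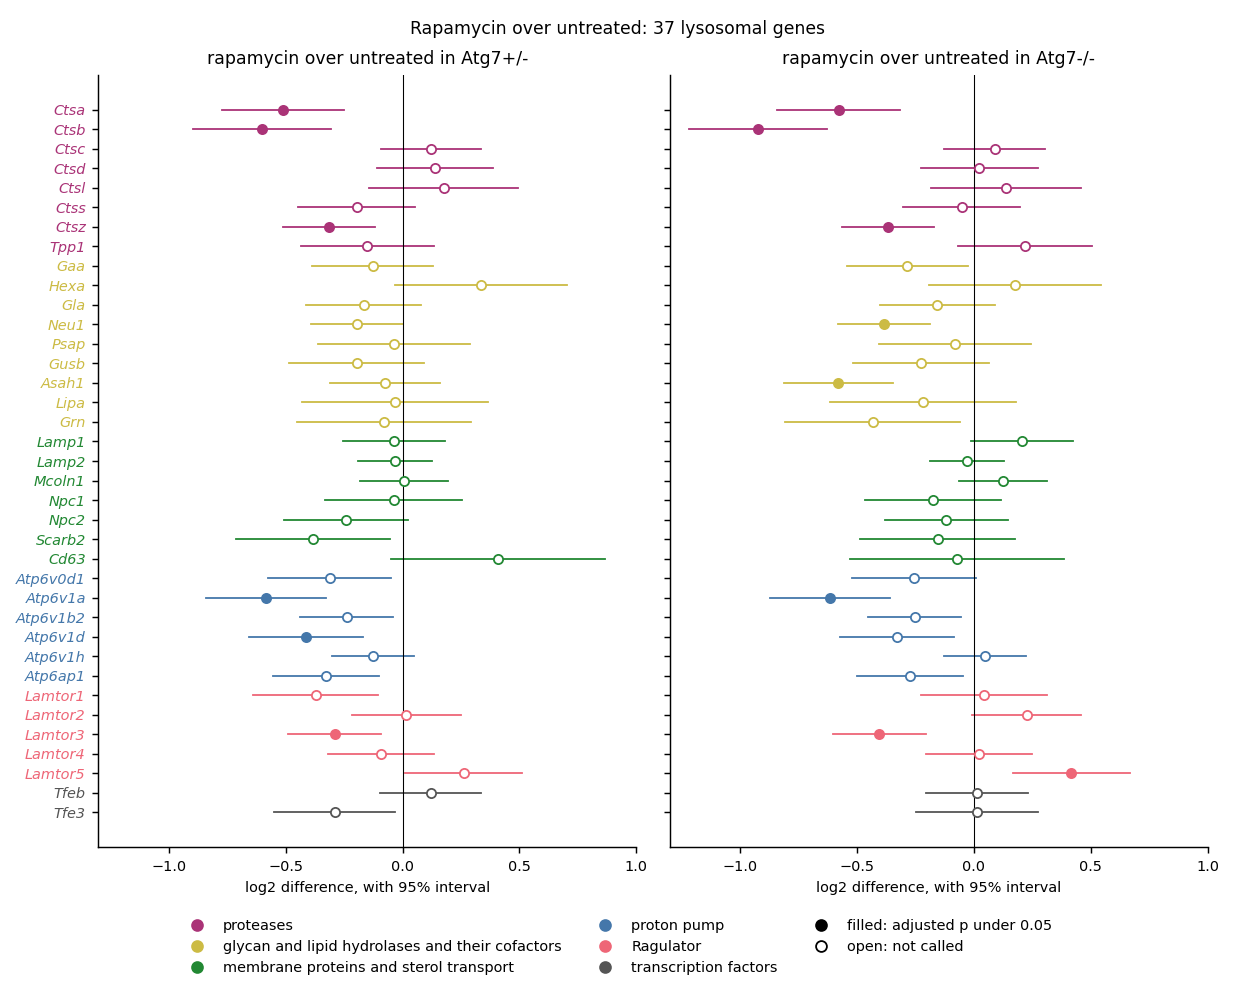
Log2 difference between rapamycin and untreated arrays (x axis, with its 95% interval) for 37 lysosomal genes (y axis), coloured by the kind of protein, in Atg7+/- cells on the left and Atg7-/- cells on the right. Filled points passed the test. Ctsb, Ctsa, Ctsz, Atp6v1a and Lamtor3 are filled and left of 0 in both panels, and Lamtor5 is the 1 filled point right of 0.

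Of the 8 protease genes 3 fell in both genotypes. Ctsb, which encodes the cysteine protease cathepsin B, measured 8.72, 8.83, 8.83 and 8.76 in untreated Atg7+/- arrays and 7.97, 7.93, 8.46 and 8.38 under rapamycin. In Atg7-/- arrays it measured 9.14, 9.23, 9.14 and 9.22 without the drug and 7.81, 8.37, 8.57 and 8.28 with it. Every rapamycin array lay below every untreated array of either genotype. Ctsb fell 1.51-fold in Atg7+/- cells (log2 difference -0.60, SE 0.14, limma adjusted p = 0.009005) and 1.90-fold in Atg7-/- cells (-0.92, adjusted p = 0.0002564), and the latter was the largest difference of any of the 37 genes in any comparison.

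Ctsa encodes cathepsin A, a carboxypeptidase that also protects beta-galactosidase and neuraminidase inside the lysosome. Its arrays read 7.36, 7.35, 7.52 and 7.04 untreated against 6.62, 6.62, 6.97 and 7.00 under rapamycin in Atg7+/- cells, and 7.82, 7.82, 7.57 and 7.47 against 6.93, 7.06, 7.26 and 7.11 in Atg7-/- cells. The groups did not overlap within either genotype. Ctsa fell 1.43-fold in Atg7+/- cells (-0.51, SE 0.124, limma adjusted p = 0.01139) and 1.49-fold in Atg7-/- cells (-0.58, adjusted p = 0.003529).

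Ctsz, which encodes the carboxypeptidase cathepsin Z, measured 8.65, 8.56, 8.57 and 8.42 in untreated and 8.15, 8.09, 8.38 and 8.32 in rapamycin arrays of Atg7+/- cells. In Atg7-/- cells the untreated arrays lay within 8.80 to 8.83 and the rapamycin arrays read 8.42, 8.24, 8.65 and 8.49, again without overlap. It fell by 0.32 on the log2 scale (SE 0.0937, limma adjusted p = 0.03192) and by 0.37 (adjusted p = 0.01062). The call in Atg7+/- cells was lost with median centring of the arrays, and without 1 of untreated replicates 1, 2 and 3 or rapamycin replicates 1 and 2, at adjusted p up to 0.105. The other protease genes, Ctsc, Ctsd, Ctsl, Ctss and Tpp1, had log2 differences from -0.20 (Ctss) to 0.18 (Ctsl) in Atg7+/- cells and from -0.05 (Ctss) to 0.22 (Tpp1) in Atg7-/- cells, and none was called. They include Ctsd, the main aspartic protease of lysosomes (0.14 and 0.02, adjusted p = 0.477 and 0.912).

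The 6 proton pump genes of the list had the lowest median of its classes under rapamycin, -0.32 in Atg7+/- cells, with each of the 6 below 0, and -0.27 in Atg7-/- cells. The 15 other pump subunits tested had medians of -0.06 and -0.07, with 4 and 5 of them above 0. Atp6v1a, the catalytic subunit that hydrolyses ATP, measured 7.06, 7.30, 7.34 and 7.03 in untreated Atg7+/- arrays and 6.44, 6.48, 6.77 and 6.70 under rapamycin. The Atg7-/- arrays read 7.44, 7.55, 7.41 and 7.24 untreated and 6.54, 6.66, 7.09 and 6.88 treated. No treated array reached an untreated array of its own genotype. Atp6v1a fell 1.5-fold in Atg7+/- cells (-0.59, SE 0.122, limma adjusted p = 0.004574) and 1.53-fold in Atg7-/- cells (-0.61, adjusted p = 0.002049).

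Atp6v1d, a subunit of the pump's rotating stalk, measured 8.70, 8.83, 8.87 and 8.72 untreated and 8.16, 8.23, 8.60 and 8.48 under rapamycin in Atg7+/- cells, without overlap. It fell 1.33-fold there (-0.41, SE 0.116, limma adjusted p = 0.02451), and that call was lost without 1 of untreated replicates 2 and 3 or rapamycin replicates 1 and 2, at adjusted p up to 0.0832. Its Atg7-/- arrays read 8.77, 8.97, 8.80 and 8.85 untreated and 8.29, 8.48, 8.84 and 8.46 treated. The groups overlapped there through rapamycin replicate 3, and the difference of -0.33 just missed the threshold (adjusted p = 0.0523). Atp6v0d1, Atp6v1b2 and Atp6ap1, which encode a membrane-sector subunit, the other subunit of the catalytic head and an accessory protein, lay between -0.33 and -0.24 in both genotypes and were not called (adjusted p from 0.0524 to 0.158). Atp6v1h, a regulatory subunit, was at -0.13 and 0.05.

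Among the glycan and lipid hydrolases and their cofactors, 9 genes in all, none was called in Atg7+/- cells and Asah1 and Neu1 fell in Atg7-/- cells. Asah1, which encodes acid ceramidase, read 6.34, 6.75, 6.67 and 6.61 in untreated and 5.69, 6.16, 6.13 and 6.06 in rapamycin arrays of Atg7-/- cells. In Atg7+/- cells the same gene read 6.30, 6.35, 6.09 and 6.11 untreated and 6.14, 6.13, 6.10 and 6.19 treated. The groups were apart in Atg7-/- cells and overlapped in Atg7+/- cells. The fall was 1.5-fold in Atg7-/- cells (-0.58, SE 0.111, limma adjusted p = 0.001612), and the difference in Atg7+/- cells was -0.07 (adjusted p = 0.704).

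Neu1, the lysosomal neuraminidase that cathepsin A protects, measured 6.41, 6.42, 6.33 and 6.43 in untreated and 5.82, 5.88, 6.18 and 6.17 in rapamycin arrays of Atg7-/- cells. It fell 1.30-fold (-0.38, SE 0.0933, limma adjusted p = 0.007671). In Atg7+/- cells the arrays read 6.24, 6.32, 6.22 and 6.18 against 5.86, 6.09, 6.13 and 6.09. They did not overlap either, but the difference of -0.19 was not called (adjusted p = 0.176). The others of this class, Gaa, Hexa, Gla, Psap, Gusb, Lipa and Grn, ranged from -0.20 (Gusb) to 0.33 (Hexa) in Atg7+/- cells and from -0.43 (Grn, the granulin precursor) to 0.18 (Hexa) in Atg7-/- cells, with no call. Of the 7 membrane protein and sterol transport genes of the list, none was called under rapamycin in either genotype. They spanned -0.38 (Scarb2, the receptor that carries glucocerebrosidase to lysosomes) to 0.41 (Cd63, a tetraspanin) in Atg7+/- cells and -0.18 (Npc1, the cholesterol exporter) to 0.21 (Lamp1) in Atg7-/- cells.

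The 5 Ragulator genes, whose products form 1 scaffold, did not move together. Lamtor3 measured 8.67, 8.80, 8.63 and 8.64 untreated and 8.35, 8.45, 8.46 and 8.32 under rapamycin in Atg7+/- cells. The Atg7-/- arrays read 8.88, 8.87, 8.80 and 9.20 against 8.52, 8.54, 8.69 and 8.40, so that the groups were apart in both genotypes. It fell by 0.29 (SE 0.094, limma adjusted p = 0.04701) and by 0.40 (adjusted p = 0.00588) on the log2 scale. The first of these calls was lost without any 1 of the 8 Atg7+/- arrays, with the replicate number as a block (adjusted p = 0.0672), and in 3 more of 18 alternatives, at adjusted p up to 0.129.

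Lamtor5 was the 1 gene of the 37 that rose under rapamycin. It read 6.20, 6.28, 6.42 and 6.46 in untreated and 6.51, 6.83, 7.04 and 6.64 in rapamycin arrays of Atg7-/- cells, which did not overlap. The rise was 1.33-fold (0.42, SE 0.12, limma adjusted p = 0.02029). It lost the call without 1 of untreated Atg7-/- replicates 1 and 2 or rapamycin Atg7-/- replicates 2 and 3, and with quantile normalization, at adjusted p up to 0.0634. In Atg7+/- cells Lamtor5 read 6.49, 6.47, 6.15 and 6.22 against 6.64, 6.36, 6.70 and 6.67, which overlapped, and the difference of 0.26 was not called (adjusted p = 0.156). Lamtor1, the lipid-anchored subunit that holds the complex on the membrane, had -0.37 in Atg7+/- cells (adjusted p = 0.0598) and 0.04 in Atg7-/- cells, and Lamtor2 and Lamtor4 lay between -0.09 and 0.23.

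**Figure D2:**
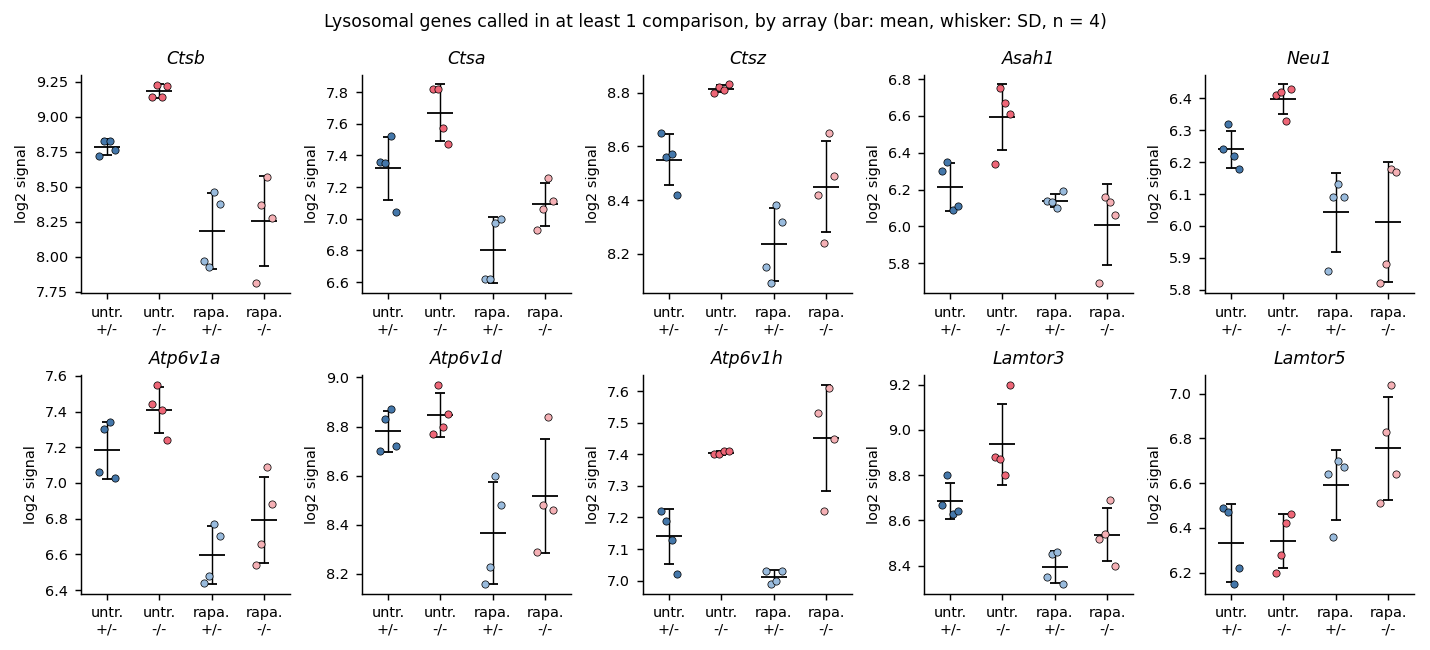
Log2 signal of each array (y axis) by group (x axis, untreated or rapamycin, Atg7+/- or Atg7-/-) for the 10 lysosomal genes called in at least 1 comparison. Bars are means and whiskers the SD of 4 arrays, and each panel has its own y range. Rapamycin arrays of Ctsb lie between 7.81 and 8.57, all below the untreated arrays at 8.72 to 9.23.

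Tfeb, Tfe3, the calcium channel gene Mcoln1 and the membrane glycoprotein gene Lamp1 were not called in any comparison of the main fit. Tfeb was dim, at 4.31, 4.55, 4.74 and 4.55 in untreated and 4.79, 4.71, 4.60 and 4.52 in rapamycin Atg7+/- arrays. The Atg7-/- arrays read 4.48, 4.40, 4.43 and 4.58 against 4.43, 4.31, 4.69 and 4.52. The groups overlapped in both genotypes, with differences of 0.12 (95% interval -0.10 to 0.34) and 0.01 (-0.20 to 0.23). Tfe3 read 6.89, 7.11, 6.94 and 6.80 untreated and 6.55, 6.58, 6.80 and 6.64 treated in Atg7+/- cells, a difference of -0.29 (-0.55 to -0.03, limma adjusted p = 0.126), with the groups meeting at 6.80. In 2 of 18 alternatives, quantile normalization and array weights, Tfe3 was called lower there, at limma adjusted p down to 0.0462. Its Atg7-/- arrays read 6.57, 6.89, 6.96 and 6.39 against 6.50, 6.66, 6.91 and 6.79 and overlapped, with a difference of 0.01 (-0.25 to 0.27) whose sign turned under other settings.

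Mcoln1 encodes TRPML1, the channel that releases calcium from lysosomes and so activates Tfeb. It measured 7.47, 7.46, 7.57 and 7.42 in untreated and 7.32, 7.52, 7.48 and 7.63 in rapamycin Atg7+/- arrays, and 7.12, 7.40, 7.12 and 7.12 against 7.42, 7.33, 7.23 and 7.29 in Atg7-/- arrays. Rapamycin and untreated arrays overlapped in both genotypes, at differences of 0.01 and 0.12, the first of which was below 0 with quantile normalization or median centring. Lamp1, an abundant glycoprotein that lines the lysosomal membrane, read 9.09, 9.04, 8.92 and 8.95 against 8.81, 8.88, 9.09 and 9.07 in Atg7+/- cells. Its Atg7-/- arrays read 8.95, 9.19, 8.87 and 8.86 against 9.28, 8.98, 9.36 and 9.07. These groups overlapped too, at differences of -0.04 (-0.26 to 0.18) and 0.21 (-0.01 to 0.43, limma adjusted p = 0.167).

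**Figure D3:**
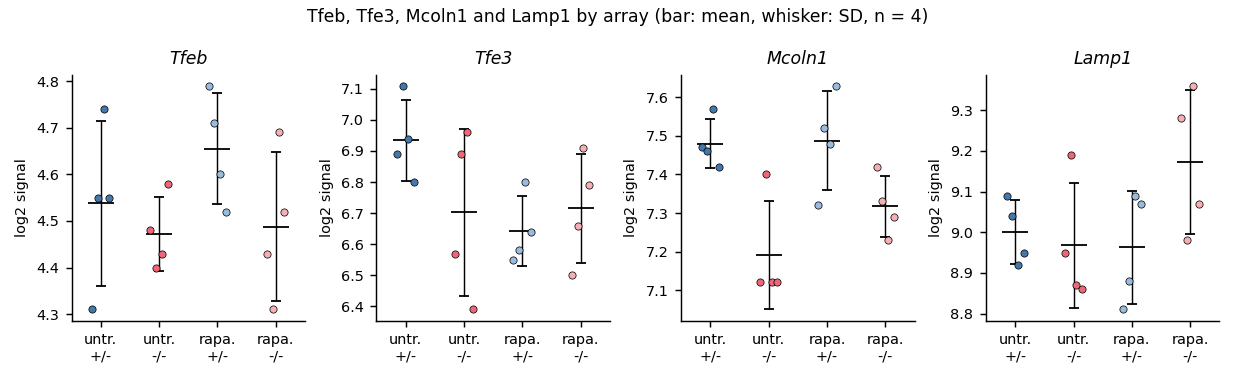
Log2 signal of each array (y axis) by group (x axis) for Tfeb, Tfe3, Mcoln1 and Lamp1. Bars are means and whiskers the SD of 4 arrays. Untreated and rapamycin arrays overlap within each genotype for Tfeb, Mcoln1 and Lamp1, and untreated Atg7-/- replicate 2 of Mcoln1, at 7.40, sits above the other arrays of its group at 7.12.

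Since Tfeb and Tfe3 bind E-boxes, the promoter windows of the lysosomal genes were searched for the E-box core CACGTG, a palindrome that reads the same on both strands, and for the longer form TCACGTGA, which contains it. Windows run from 250 bases before to 50 bases after each RefSeq transcript start on GRCm38.p6. The promoter table held 33 of the 39 genes and not Ctsb, Asah1, Lamtor3, Atp6v1h, Atp6v1b2 or Npc1. The core was in 12 of their 40 windows, or 30%, against 7.15% of 32851 windows of all genes, and the longer form in 15% against 0.974%. Shown here are the 250 bases before the start of 4 genes that fell, Atp6v1a and Ctsa with the core and Neu1 and Ctsz without it, and of Lamp1, which has 4 cores and was not called. Lamp1 was added to the set after its values were seen. Capitals mark the core, and each sequence is given 5′ to 3′ on the strand of the gene.
Atp6v1a: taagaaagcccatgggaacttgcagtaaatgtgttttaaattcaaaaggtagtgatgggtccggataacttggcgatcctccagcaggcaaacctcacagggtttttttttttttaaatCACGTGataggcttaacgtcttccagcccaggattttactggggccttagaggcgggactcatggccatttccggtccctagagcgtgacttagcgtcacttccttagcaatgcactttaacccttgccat
Ctsa: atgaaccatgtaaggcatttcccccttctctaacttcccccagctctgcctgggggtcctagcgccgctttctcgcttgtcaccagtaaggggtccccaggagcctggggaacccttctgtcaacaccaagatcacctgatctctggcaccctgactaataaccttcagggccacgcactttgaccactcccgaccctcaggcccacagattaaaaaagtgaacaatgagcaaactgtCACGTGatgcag
Neu1: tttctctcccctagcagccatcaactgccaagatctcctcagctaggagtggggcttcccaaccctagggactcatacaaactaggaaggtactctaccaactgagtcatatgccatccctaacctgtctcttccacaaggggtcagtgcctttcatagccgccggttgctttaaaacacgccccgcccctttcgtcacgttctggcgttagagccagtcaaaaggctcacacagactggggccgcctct
Ctsz: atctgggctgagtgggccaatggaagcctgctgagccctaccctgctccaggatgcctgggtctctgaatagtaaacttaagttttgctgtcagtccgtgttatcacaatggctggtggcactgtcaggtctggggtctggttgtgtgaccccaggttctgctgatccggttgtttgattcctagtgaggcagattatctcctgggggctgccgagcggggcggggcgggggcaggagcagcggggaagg
Lamp1: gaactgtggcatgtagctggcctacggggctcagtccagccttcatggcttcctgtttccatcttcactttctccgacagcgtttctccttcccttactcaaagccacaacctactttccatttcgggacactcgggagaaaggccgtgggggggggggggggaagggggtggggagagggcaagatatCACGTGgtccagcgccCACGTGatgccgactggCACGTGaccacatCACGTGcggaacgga

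These windows lie at chr16:44139260-44139509 on the minus strand for Atp6v1a, chr2:164833523-164833772 on the plus strand for Ctsa and chr17:34931003-34931252 on the plus strand for Neu1. Those of Ctsz and Lamp1 lie at chr2:174439040-174439289 on the minus strand and chr8:13158911-13159160 on the plus strand. The core began 131 bases before the start in Atp6v1a and 12 bases before it in Ctsa, which has another core 6 bases after the start, outside the stretch shown. All 3 of these carried the longer form. In Lamp1 the cores began 61, 45, 28 and 15 bases before the start and none had the longer form. Over the measured genes the 11 with a core had a median log2 difference under rapamycin of -0.13 in Atg7+/- and 0.02 in Atg7-/- cells. The 20 without a core had medians of -0.12 and -0.08. In each genotype 2 genes with a core fell, Atp6v1a and Ctsa, and so did 2 without it. Ctsb, Asah1 and Lamtor3, which fell as well, stand on neither side of that split. A match of letters is a description and shows no binding.

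The rapamycin comparisons of the 2 genotypes share no arrays, but they may not be independent. Deviations from the group means correlated between same-numbered rapamycin arrays of the genotypes, at 0.24, 0.192, 0.358 and -0.066 for numbers 1 to 4. Whether such arrays share a batch was not tested. Of the 37 genes, 5 were called in both, Ctsa, Ctsb, Ctsz, Lamtor3 and Atp6v1a, all in the same direction. They are 83.3% of the genes called in Atg7+/- and 62.5% of those called in Atg7-/- cells, where the shares over all genes were 64.1% and 45.4%. The sign agreed for 81.1% of the 37 genes and 75.3% of all genes, while the correlation of the effects across genes, which are not independent replicates, was 0.678 and 0.746. Counting arrays without overlap, 9 genes were lower under rapamycin in Atg7+/- cells and none higher, which is 24.3% against 22.7% of all genes. In Atg7-/- cells 8 were lower and 1 higher, which is 24.3% against 20.4%.

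The test of the difference between the rapamycin effects called none of the 37 genes and 0 of all 16760 genes tested, or 0%. By limma 2 of the 37 genes had an unadjusted p under 0.05 in that test, as did 1052 of all genes. Asah1 had the smallest p (difference -0.51, 95% interval -0.84 to -0.17, limma adjusted p = 0.618), and Lamtor1 the next. Lamtor1 read 7.28, 7.16, 7.20 and 7.08 in untreated and 6.65, 6.56, 6.98 and 7.05 in rapamycin Atg7+/- arrays. The Atg7-/- arrays read 7.03, 7.38, 7.21 and 6.75 against 7.06, 7.13, 7.26 and 7.08. The first pair of groups was apart and the second overlapped, and the difference between the effects was 0.41 (0.03 to 0.79, limma adjusted p = 0.792). The falls of Asah1 and Neu1 and the rise of Lamtor5 in Atg7-/- cells are therefore not shown to differ from the values in Atg7+/- cells.

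Between untreated genotypes no lysosomal gene was called by limma, against 3.14% of all genes, and 9 of the 37 genes had an unadjusted p under 0.05, as had 2910 of all 16760. The median of the 37 genes was 0.11 against 0.02 for all genes, and 23 lay above 0, as did 9300 of all genes. That median was 0.0506 without untreated Atg7+/- replicate 4 and 0.0545 without untreated Atg7-/- replicate 2. The arrays of the genotypes did not overlap for 8 of them, or 21.6%, against 14.1% of all genes. Higher in every Atg7-/- array were Ctsb, Ctsc, Ctss, Ctsz, Atp6v1h, Neu1 and Gusb, and lower was Mcoln1. The smallest p values belonged to Asah1 (0.38, SE 0.111, adjusted p = 0.0714) and to Gusb, the glycosidase beta-glucuronidase. Gusb measured 7.34, 7.64, 7.70 and 7.02 in untreated Atg7+/- and 7.98, 7.76, 7.91 and 7.84 in untreated Atg7-/- arrays (0.45, SE 0.138, limma adjusted p = 0.0867). The groups did not overlap, while those of Asah1 did, through untreated Atg7-/- replicate 1.

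Under rapamycin Atp6v1h was higher in Atg7-/- than in Atg7+/- cells, the 1 call of 37, or 2.7%, against 3.24% of all genes. Its arrays read 7.03, 6.99, 7.00 and 7.03 in Atg7+/- and 7.53, 7.22, 7.61 and 7.45 in Atg7-/- cells under rapamycin. Untreated arrays read 7.22, 7.19, 7.13 and 7.02 against 7.40, 7.40, 7.41 and 7.41. Every Atg7-/- array was above every Atg7+/- array of the same treatment. The difference was 1.36-fold under rapamycin (0.44, SE 0.0836, limma adjusted p = 0.01092) and 0.27 in untreated cells (adjusted p = 0.0932). The call was lost when only the 8 rapamycin arrays were fitted (adjusted p = 0.0924). Counting arrays without overlap, Atp6v1h and Lamtor1 were higher, 5.41% of the 37 genes against 9.77% of all genes. Tfeb was at -0.06 and -0.17 between genotypes without and with rapamycin and Tfe3 at -0.23 and 0.07, none of them called.

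**Figure D4:**
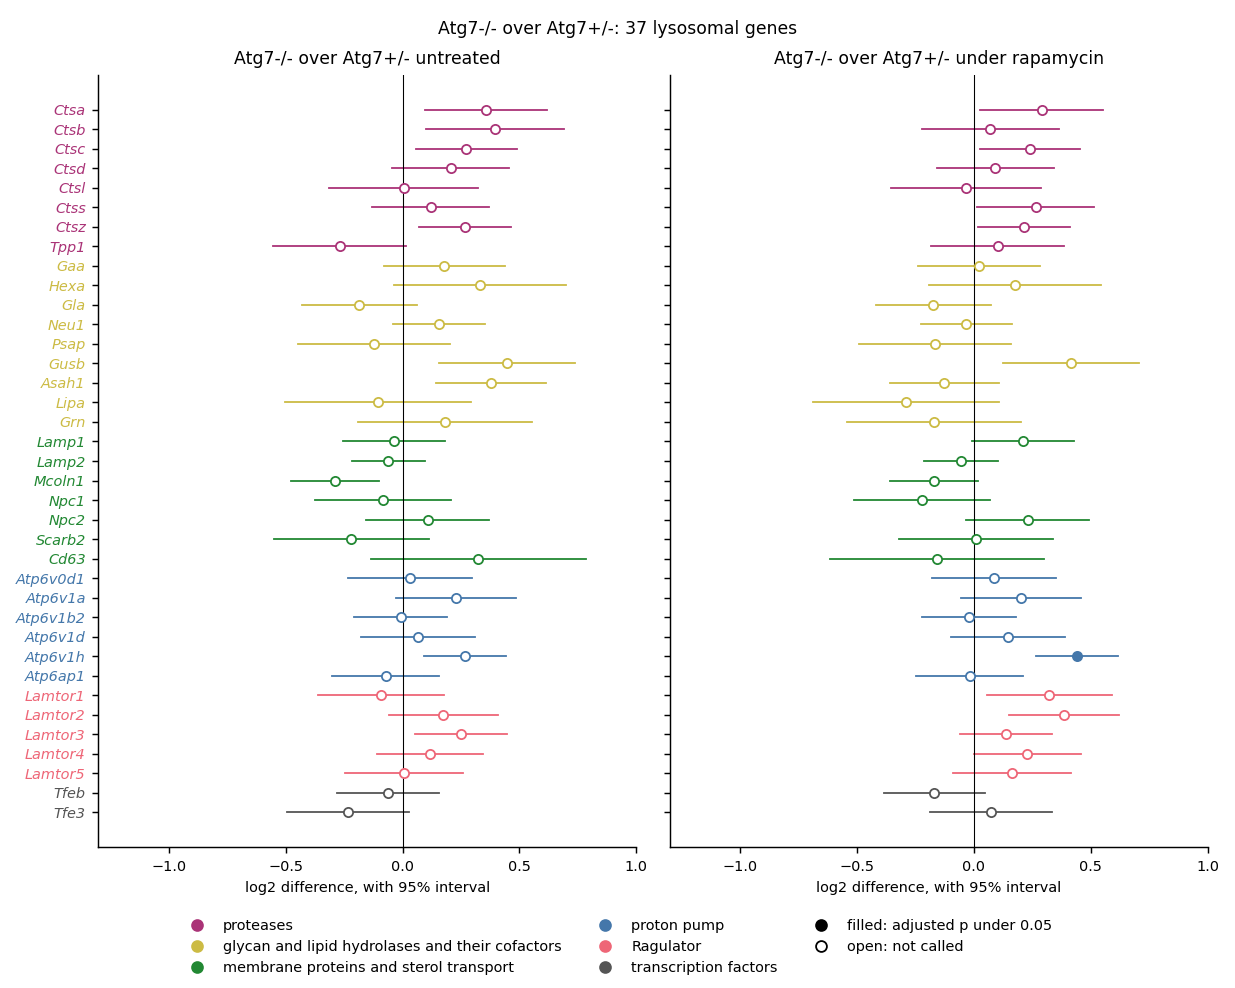
Log2 difference between Atg7-/- and Atg7+/- arrays (x axis, with its 95% interval) for 37 lysosomal genes (y axis), coloured by the kind of protein, untreated on the left and under rapamycin on the right. Filled points passed the test. Atp6v1h under rapamycin, at 0.44, is the 1 filled point.

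For each of the 7 genes that fell under rapamycin in Atg7-/- cells the group with the highest mean was untreated Atg7-/-. That group serves both the untreated genotype comparison and the rapamycin comparison in Atg7-/- cells, so the values of these comparisons are linked. For Ctsb they were 0.40 (adjusted p = 0.137) and -0.92, for Asah1 0.38 and -0.58, and for Neu1 0.16 (adjusted p = 0.409) and -0.38. Under rapamycin the genotypes differed by 0.07 for Ctsb, -0.13 for Asah1 and -0.03 for Neu1, with adjusted p from 0.609 to 0.909. For Ctsa, Ctsz, Lamtor3 and Atp6v1a the genotypes differed by 0.29, 0.21, 0.14 and 0.20 under rapamycin and by 0.36, 0.27, 0.25 and 0.23 without it, with no call.

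Within the rapamycin groups many lysosomal genes deviated in the same direction in single arrays. In rapamycin Atg7-/- replicate 3, 36 of the 37 genes lay above their group mean, with a median deviation of 0.20, and in replicate 1 of that group 7 did, with a median of -0.20. In rapamycin Atg7+/- cells 5 and 6 genes lay above the group mean in replicates 1 and 2, and 31 and 32 did in replicates 3 and 4. Over all genes tested the share above the group mean was 42.4% to 57.1% in the 16 arrays and the median deviation lay between -0.027 and 0.036. In the untreated groups 4 to 27 of the 37 genes were above the mean, with the lowest count in Atg7+/- replicate 4. The median over all probe sets also differed between arrays. It was 4.632, 4.627, 4.511 and 4.579 in rapamycin Atg7+/- replicates 1 to 4. In rapamycin Atg7-/- replicates 1 to 4 it was 4.586, 4.566, 4.411 and 4.551. Untreated Atg7+/- replicate 4 had 4.59, and untreated Atg7-/- arrays lay between 4.541 and 4.551. The part of array-wide signal in the shifts was not tested.

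**Figure D5:**
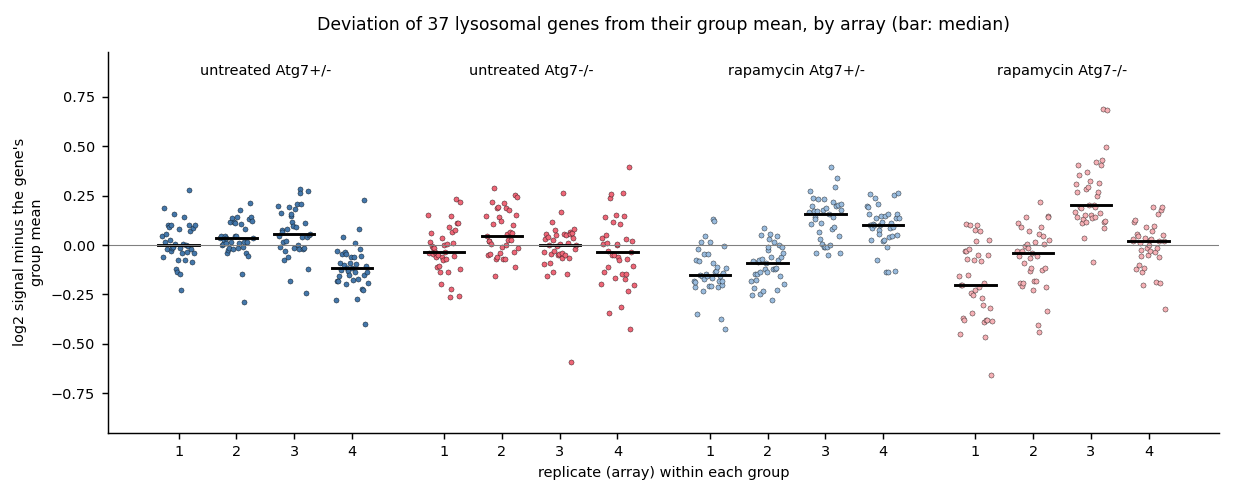
Deviation of each of 37 lysosomal genes from its own group mean on the log2 scale (y axis) in each of the 16 arrays (x axis, replicates 1 to 4 within each group). Points are genes and black bars their medians. The medians of the rapamycin Atg7-/- arrays run from -0.20 in replicate 1 to 0.20 in replicate 3.

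In rapamycin Atg7+/- cells 26 of the 37 genes, or 70.3%, were lower in both of replicates 1 and 2 than in either of replicates 3 and 4, as were 26% of all genes. In rapamycin Atg7-/- cells 31 of the 37 genes, or 83.8%, had their highest value in replicate 3, as had 37.3% of all genes. These arrays were singled out after the values were seen. Among 99 other genes of lysosomes, their transport and nutrient sensing, 64 lay above the group mean in rapamycin Atg7-/- replicate 3 and 35 in replicate 1. Of the 9 macrophage markers 5, 1, 9 and 5 were above their group mean in rapamycin Atg7-/- replicates 1 to 4, where they averaged 4.09, 4.18, 4.72 and 4.33. In rapamycin Atg7+/- replicates 1 to 4 these counts were 2, 5, 7 and 6, and the averages 4.30, 4.45, 4.63 and 4.55. The 9 T and Treg cell markers averaged 10.35, 10.48, 10.54 and 10.50 in rapamycin Atg7-/- replicates 1 to 4. In rapamycin Atg7+/- replicates 1 to 4 they averaged 10.37, 10.45, 10.44 and 10.47. Itgam, of the macrophage list, was below the filter on dim genes in all 4 groups, and the part of macrophages in these shifts was not tested. Without rapamycin Atg7-/- replicate 3, 11 of the 37 genes fell under rapamycin in Atg7-/- cells and none rose: Atp6v0d1, Atp6v1b2, Atp6v1d and Grn were called as well and Lamtor5 was not. Of all 16778 genes tested without that array 1995 fell and 1424 rose, so that 20.4% were called.

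Other genes of the pathway were taken from lists of related symbols, also chosen with earlier results of these data known. Their shares are read against the 8.11% and 11.1% of all genes that were lower under rapamycin in Atg7+/- and Atg7-/- cells, and nothing is claimed as particular to a list. Of 15 other proton pump subunits 3, or 20%, fell in each genotype. They were Tcirg1, a subunit of the membrane sector (-0.68 and -0.82), and Atp6v0b, a proteolipid subunit of that sector (-0.43 and -0.30), in both, with Atp6v0a2 (-0.41) in Atg7+/- and Atp6ap2 (-0.38) in Atg7-/- cells. Of 30 other lysosomal hydrolases 4, or 13.3%, fell in Atg7+/- cells, and in Atg7-/- cells 5, or 16.7%, fell and 1 rose. Gm2a, the cofactor for ganglioside breakdown, fell by 0.93 and by 0.96 on the log2 scale, and Arsb, a sulfatase, by 0.40 and by 0.43. Ctsw, a cathepsin of cytotoxic lymphocytes (-0.62), and Ppt2 (-0.49) were the others with the largest falls in Atg7+/- cells, and Manba, a beta-mannosidase (-0.52), and Acp5, an acid phosphatase (-0.47), in Atg7-/- cells.

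Of 28 other membrane, transport and sorting genes 9, or 32.1%, fell in Atg7+/- cells, and 9 fell and 2 rose in Atg7-/- cells, at medians of -0.19 and -0.21. Igf2r, a receptor that sorts hydrolases with mannose 6-phosphate to lysosomes, fell by 0.77 and by 0.71 on the log2 scale. Laptm5, a lysosomal membrane protein of lymphocytes, fell by 0.77 in both genotypes. The other large falls were those of Abca2, a transporter (-0.56), and M6pr, the smaller mannose 6-phosphate receptor (-0.46), in Atg7+/- cells. In Atg7-/- cells they were those of Mcoln2, the gene of the channel TRPML2 (-0.95, adjusted p = 0.001133), and Vps11, a subunit of tethering complexes of late endosomes (-0.49). Of 21 genes of nutrient sensing at the lysosome 1, or 4.76%, fell in Atg7+/- cells, and 4, or 19%, fell and 1 rose in Atg7-/- cells, at medians near 0 (0.0039 and -0.0044). Rraga, a Rag GTPase, fell in both genotypes (-0.36 and -0.30), and Nprl2 (-0.44), Wdr59 (-0.43) and Fnip2 (-0.31) in Atg7-/- cells. The genes that rose in Atg7-/- cells were Ctso (0.35), Slc17a5 (0.33), Vps41 (0.30) and Depdc5 (0.22), which are named here after their values were seen. Of 5 relatives and regulators of Tfeb, Ppp3cb, a catalytic subunit of calcineurin, rose in Atg7+/- cells (0.30, adjusted p = 0.04622) and none was called in Atg7-/- cells.

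Between untreated genotypes 6 of these 99 other genes were called, where 3.14% of all genes were. They made up 7.14% of the membrane, transport and sorting list, 14.3% of the nutrient sensing list and 3.33% of the hydrolase list. Mcoln2 was higher in Atg7-/- cells by 1.24 (SE 0.173, limma adjusted p = 0.0007804) and Mcoln3, which encodes TRPML3, by 0.56 (adjusted p = 0.004923), while the difference of Mcoln1 was -0.29 (adjusted p = 0.0882). Fnip2 (0.53) and Wdr59 (0.46) were higher, and Ids, a sulfatase (-0.50), and Depdc5 (-0.28) lower. Under rapamycin Ctsw (0.57), Gnptab, an enzyme that makes the mannose 6-phosphate tag (0.35), and M6pr (0.29) were higher in Atg7-/- cells, and no gene of the other lists was lower. Ctsw was 1 of 30 other hydrolases, or 3.33%. Gnptab and M6pr were 2 of 28 membrane, transport and sorting genes, or 7.14%, where 3.24% of all genes were called.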

How the data were processed

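RNA of 16 sorted and stimulated Treg samples was amplified from 1 to 5 ng with a NuGEN kit and hybridised as biotin-labelled cDNA, per the labels' protocols. The authors deposited a log2 signal per array for each of 41345 probe sets, and the submitters' processing notes name RMA and Partek 6.6 without an order or settings. No base of the logarithm stands in the file, so base 2, which RMA uses, was assumed and folds rest on it. The genome build is not given in the sources used here, and the labels name no batch. Whether replicates were separate mice is not stated either, and p-values then reflect only the scatter among these arrays, which can be technical.

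Probe sets with 1 symbol in GEO's platform annotation named 22180 genes, each taken from its brightest probe set (Lamtor3, Atp6v1b2 and Npc1 had 2). Genes were kept where the highest group mean exceeded 3.549, the 30th percentile of all values. All 16 arrays entered 1 limma fit (version 3.58.1, R 4.3.3) with a mean for each group (lmFit, eBayes; 12 residual and 5.64 prior degrees of freedom), tests were two-sided, and the code was tested on simulated data. An SE is that of the fit. RefSeq promoter windows were matched by symbol. Genes named with values in every array are Tfeb, Tfe3, Mcoln1, Lamp1 and the called members, up to 6 in each direction, or the 2 with the smallest p. Other lists give up to 4 called genes with the largest change. The members and lists were chosen with earlier results of these data known. Alternatives were other scalings, filters, probe set rules, fits, the replicate block and leaving out each array.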

Additional observations from a re-analysis of the deposited data

Results flagged for a closer look

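Within groups of 4 arrays, 2 of 68 gene-by-group checks over 17 genes found an array far from the other arrays of its group, where chance flags about 1 in 20. Neu1, the lysosomal neuraminidase, read 5.86 in rapamycin Atg7+/- replicate 1 and 6.09 to 6.13 in the other arrays of that group. Mcoln1, the lysosomal calcium channel, read 7.40 in untreated Atg7-/- replicate 2 and 7.12 in each of the other arrays of that group, and without that array it was called lower in untreated Atg7-/- than in Atg7+/- cells.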

How the results depend on the processing

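Under all 18 alternatives tried for each, Ctsb, Atp6v1a and Ctsa kept their call for rapamycin in Atg7+/- cells, and Ctsb, Atp6v1a, Asah1, Ctsa, Lamtor3, Neu1 and Ctsz in Atg7-/- cells. The count of lysosomal genes called between untreated genotypes was 0, and 2 with array weights (Atp6v1h and Asah1), 1 with only the groups compared (Ctsb) and 0 to 1 leaving out single arrays. Between genotypes under rapamycin it was 1, and 2 with the filter at the 50th percentile, with the trend and robust options or with the replicate number as a block (Lamtor2 added each time), 0 with only the groups compared, and 1 to 2 leaving out single arrays. For rapamycin in Atg7+/- cells it was 6, and 10 with array weights and 3 to 7 leaving out single arrays; 3 were left without untreated replicate 2 or 3 or rapamycin replicate 1 or 2. In Atg7-/- cells it was 8, and 7 to 11 over all alternatives. With the replicate block 6 and 10 genes were called for rapamycin in Atg7+/- and Atg7-/- cells. Deviations of same-numbered arrays correlated at -0.083 to 0.358 (median 0.023; 8 of 16 arrays were closest to their own number). Between the rapamycin groups the correlations were 0.24, 0.192, 0.358 and -0.066 for numbers 1 to 4. Arrays with different numbers correlated at -0.303 to 0.236 (median -0.009), and 7 of 72 such pairs exceeded 0.1, against 6 of 24 same-numbered pairs. As not every same-numbered pair exceeded 0.1, the cut used here, the numbers were not taken as pairs. Whether same-numbered rapamycin arrays share a batch was not tested.

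Differences that changed sign were small and not called: Tfe3 in Atg7-/- cells under rapamycin was -0.0283 with quantile normalization and -0.0622 with array weights, and Mcoln1 in Atg7+/- cells -0.0177 with quantile normalization and -0.0373 with median centring. Leaving out single arrays, the rapamycin difference in Atg7-/- cells ran from -0.0547 to 0.0723 for Tfeb, -0.0901 to 0.1009 for Tfe3 and -0.0103 to 0.254 for Atg7. That in Atg7+/- cells ran from -0.0424 to 0.0625 for Mcoln1 and -0.0816 to 0.0121 for Lamp1, and the untreated genotype difference from -0.1392 to 0.0063 for Tfeb and -0.1099 to 0.0002 for Lamp1. Over all genes the 543 calls between genotypes under rapamycin fell to 20 with only the groups compared, to 95 and 223 without rapamycin Atg7+/- replicate 2 or 1, and to 255, 287 and 269 without its replicate 4 or rapamycin Atg7-/- replicate 3 or 4. They were 820 with the stricter filter, 886 with the trend and robust options, 783 with quantile normalization (542 higher, 241 lower) and 350 with median centring (253 and 97). The 527 calls between untreated genotypes were 284 to 399 leaving out single arrays, 318 with median centring and 974 with array weights, and the 2370 for rapamycin in Atg7+/- cells were 1559 without rapamycin replicate 2 and 3675 with all probe sets fitted, so the shares of all genes set beside the members move with them. The number of arrays limits the precision of every value, and the cause of these shifts was not tested.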
